A study of Mus musculus with 8 samples.

Results

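The genes described here encode cytokines and were chosen by name, with earlier results of these data known. They are *Ifng*, *Tnf*, *Il2*, *Csf2*, *Il10*, *Il3*, *Lta*, *Il21*, *Il13* and *Il24*. All 10 had a row among the 22520 genes of the expression table. The table came from bulk RNA-seq of CD8+ T cells from mouse spleen, which were stimulated through CD3 and CD28 with IL-2 in the medium of both groups. From day 3 the cells received the solvent DMSO (the control group, Ctrl in the labels) or 40 µM of diisopropylamine dichloroacetate (DADA), an inhibitor of pyruvate dehydrogenase kinase, and they were harvested on day 6. There were 4 libraries per group. No label ties the biological replicates to separate mice, so the p-values measure the spread between these samples only. In bulk RNA, a smaller number of cells of one kind and less RNA per cell cannot be told apart.

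Cytokines are the secreted signals by which T cells act on other cells and on themselves. Engagement of the T cell receptor and of CD28 activates the transcription factors NFAT, AP-1 and NF-κB, which switch cytokine genes on, while proteins that bind the mRNA set how long the transcripts last. Effector CD8+ T cells are known for IFN-γ and TNF, IL-2 feeds T cell division, and IL-10 restrains inflammation. Several of these genes lie side by side on the chromosome. *Csf2* is next to *Il3*, *Tnf* is next to *Lta*, *Il2* is next to *Il21*, and *Il24* and *Il10* belong to the same cluster of IL-10 family genes.

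The stretches just before the transcription start of 6 of these genes are printed: *Tnf* and *Lta*, adjacent genes that moved in opposite directions, *Il3* and *Il13*, which did so on chromosome 11, and *Ifng* and *Il2*, the main effector cytokine and the main growth factor of T cells. They comprise 250 bases upstream of the RefSeq start on the mouse build GRCm38.p6, read 5′ to 3′ in the direction of the gene. Capitals mark the core letters of an NFAT site (GGAAA, or TTTCC on the other strand) and the TATA box letters (TATAAA on either strand).
Il3 (chr11:54267280-54267529, minus strand): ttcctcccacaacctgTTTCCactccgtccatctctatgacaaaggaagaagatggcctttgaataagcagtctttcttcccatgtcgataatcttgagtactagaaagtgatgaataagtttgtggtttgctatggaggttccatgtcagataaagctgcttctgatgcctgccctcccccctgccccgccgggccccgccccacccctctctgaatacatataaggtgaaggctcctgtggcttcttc
Il13 (chr11:53634703-53634952, minus strand): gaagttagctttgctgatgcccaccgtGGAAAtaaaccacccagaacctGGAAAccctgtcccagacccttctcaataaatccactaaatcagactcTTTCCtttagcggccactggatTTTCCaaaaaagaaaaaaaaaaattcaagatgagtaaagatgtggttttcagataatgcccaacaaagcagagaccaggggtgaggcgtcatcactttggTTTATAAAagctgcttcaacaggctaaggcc
Tnf (chr17:35202008-35202257, minus strand): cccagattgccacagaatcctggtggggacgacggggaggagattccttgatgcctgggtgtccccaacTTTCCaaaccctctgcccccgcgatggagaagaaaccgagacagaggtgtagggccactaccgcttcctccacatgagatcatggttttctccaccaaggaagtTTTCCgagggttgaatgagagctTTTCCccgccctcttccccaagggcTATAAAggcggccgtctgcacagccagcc
Lta (chr17:35205352-35205601, minus strand): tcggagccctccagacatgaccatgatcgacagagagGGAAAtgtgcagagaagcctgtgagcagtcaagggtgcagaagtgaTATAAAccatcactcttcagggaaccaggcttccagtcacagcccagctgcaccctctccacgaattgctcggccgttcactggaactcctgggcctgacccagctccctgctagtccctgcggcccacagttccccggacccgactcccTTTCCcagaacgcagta
Ifng (chr10:118440796-118441045, plus strand): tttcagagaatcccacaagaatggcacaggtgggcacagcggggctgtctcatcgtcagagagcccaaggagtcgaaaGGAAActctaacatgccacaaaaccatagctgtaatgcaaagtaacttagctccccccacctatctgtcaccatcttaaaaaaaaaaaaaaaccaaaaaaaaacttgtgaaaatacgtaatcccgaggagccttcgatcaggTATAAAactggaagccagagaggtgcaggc
Il2 (chr3:37125955-37126204, minus strand): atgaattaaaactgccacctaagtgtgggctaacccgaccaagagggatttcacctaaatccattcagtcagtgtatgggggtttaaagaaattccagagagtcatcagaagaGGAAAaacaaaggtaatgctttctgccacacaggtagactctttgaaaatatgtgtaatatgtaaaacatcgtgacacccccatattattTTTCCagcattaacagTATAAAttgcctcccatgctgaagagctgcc
The RefSeq promoter table held 8 of the 10 genes and lacked *Il10* and *Il24*. The NFAT core was found in 8 of 8 windows, against 55.6% of all 32851 promoters of the same length. TATA box letters were found in 5 of 8 windows, against 12.4% of all promoters. In *Ifng*, *Tnf*, *Il2* and *Il13* these letters began between 29 and 31 bases upstream of the start, and in *Lta* 167 bases upstream. In *Il13* the matches on the plus and minus strands overlapped. An AP-1 site (TGANTCA, which reads alike on both strands) was in 0 of 8 windows and 6.75% of all promoters. Such matches describe letters in this window only, and the window of *Csf2* is not printed because its RefSeq start lay 232 bases from the nearest GENCODE M21 start.

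Every cytokine gene of the set had DMSO and DADA libraries that did not overlap, with 7 genes higher and 3 lower with DADA. Non-overlap was common in these data, holding for 60.6% of the 10666 genes tested. Levels are given as FPKM, fragment numbers divided by the length of the transcript and by the size of the library, so that they can be compared between genes. Changes are differences of log2(FPKM + 1), tested with limma across all genes that reached 1 FPKM in at least 4 libraries, and a gene was called at a Benjamini-Hochberg adjusted p under 0.05. By that rule 66.2% of the genes tested were called, 30.9% higher and 35.3% lower, and the median change was -0.02 on the log2 scale. Of the cytokine genes, 7 reached 1 FPKM in all 8 libraries, and of these 4 were called higher (*Ifng*, *Tnf*, *Il3* and *Il24*) and 3 lower (*Csf2*, *Il13* and *Lta*). *Il2* and *Il10* passed the filter only through their DADA libraries and so had to differ, and *Il21* did not pass it. With 4 libraries against 4 there are 70 assignments, so the exact two-sided permutation test cannot go below p = 0.0286, the value it gave for each of the 10 genes.

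**Figure D1:**
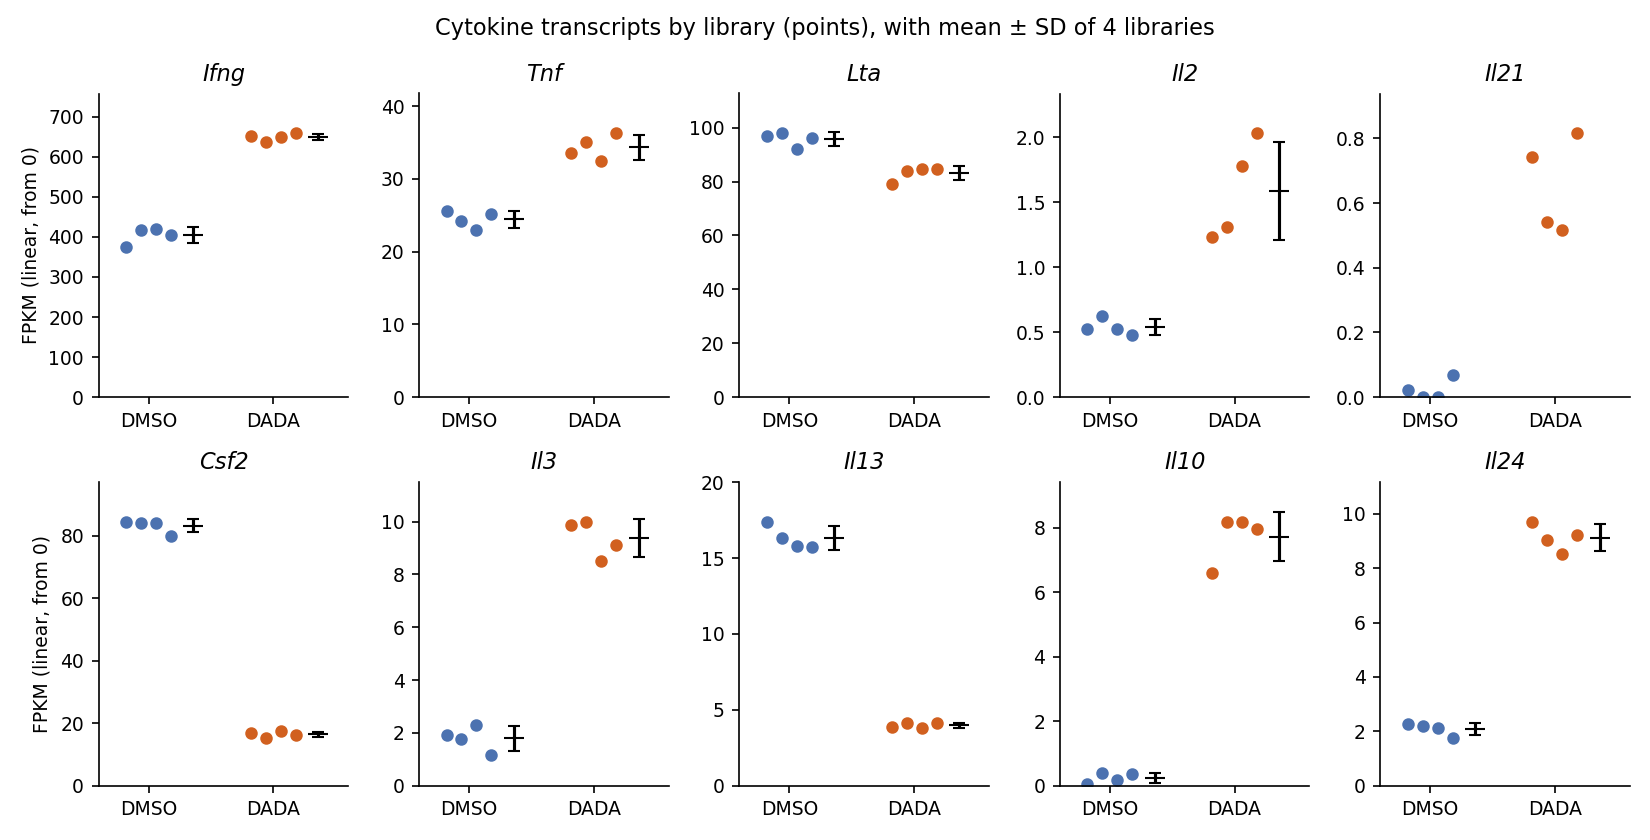
FPKM of each cytokine gene in the 4 DMSO and the 4 DADA libraries (points, each panel with its own linear axis from 0), with the mean ± SD of each group beside them except for *Il21*, which was listed at 0 in some libraries. No panel has overlapping groups: *Csf2*, *Il13* and *Lta* were lower with DADA and the other 7 genes higher.

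*Ifng* (ENSMUSG00000055170) encodes IFN-γ, which arms macrophages and raises antigen presentation. Its level was 376, 416, 420.1 and 405 FPKM in the DMSO libraries and 651, 638, 649 and 659 FPKM in the DADA libraries. The lowest DADA library thus lay far above the highest DMSO library. The mean rose from 404 ± 20.1 to 649 ± 8.54 FPKM (SD, n = 4 each), a log2 change of 0.68 with a standard error of 0.034 (adjusted p = 6.39e-08 by limma). *Ifng* was the most abundant cytokine transcript of the set in every library. It made up 64.3% ± 1.51 of the summed FPKM of the 10 genes with DMSO and 79.6% ± 0.402 with DADA (SD, n = 4 each). That sum itself was 628 ± 17.6 FPKM with DMSO and 816 ± 9.66 FPKM with DADA.

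*Tnf* (ENSMUSG00000024401) encodes TNF, an inflammatory cytokine made as a membrane protein and cut from the cell surface. It was measured at 25.6, 24.2, 23.0 and 25.2 FPKM with DMSO and at 33.5, 35.1, 32.4 and 36.3 FPKM with DADA. All the treated libraries were above all the controls, by 1.40-fold on the means (log2 change 0.47, 95% interval 0.37 to 0.57, adjusted p = 6.16e-06). The 3 genes listed for the release of TNF from the cell surface (*Adam17*, *Rhbdf2* and *Frmd8*) were called higher, as were 30.9% of all genes tested. *Rhbdf2*, a partner of the TNF-cutting protease, moved most, by 0.36 on the log2 scale.

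*Lta* (ENSMUSG00000024402), the adjacent gene, encodes lymphotoxin-α, a TNF family member involved in building lymphoid tissue. Its 4 DMSO libraries read 96.9, 98.0, 92.2 and 96.3 FPKM, and its 4 DADA libraries 79.2, 84.1, 84.8 and 84.5 FPKM. The groups were separate but close, and *Lta* had the smallest change of the 10 genes, 0.868-fold on the means (log2 change -0.20, standard error 0.0294, adjusted p = 1.58e-04). DADA replicate 1 was the lowest library, and leaving out any 1 library gave log2 changes of -0.22 to -0.18. The log2 ratio of *Tnf* to *Lta* was -1.97 ± 0.0491 with DMSO and -1.28 ± 0.075 with DADA (SD, n = 4 each). On the other side of *Tnf*, *Ltb*, which encodes the membrane partner of lymphotoxin-α, rose from 52.6 to 115 FPKM (log2 change 1.12, adjusted p = 7.76e-08).

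*Csf2* (ENSMUSG00000018916) encodes GM-CSF, a growth and activation factor of myeloid cells. It stood at 84.5, 84.0, 83.9 and 80.0 FPKM with DMSO and at 16.7, 15.4, 17.4 and 16.2 FPKM with DADA. Its mean was 5.05-fold lower with DADA (log2 change -2.27, 95% interval -2.35 to -2.19, adjusted p = 3.04e-11), and only 4 of the 10666 genes tested had a lower log2 change. With DMSO, *Csf2* held 13.2% ± 0.515 of the summed FPKM of the 10 genes and ranked after *Ifng* and *Lta*. With DADA its share was 2.02% ± 0.1 and it ranked below *Tnf*.

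*Il3* (ENSMUSG00000018914), the neighbour of *Csf2*, encodes IL-3, a growth factor of blood progenitors, mast cells and basophils. Its DMSO libraries gave 1.91, 1.78, 2.29 and 1.18 FPKM and its DADA libraries 9.87, 10.0, 8.49 and 9.13 FPKM. At the depth estimated from the FPKM steps, this was only about 10.5 to 19.8 fragments per DMSO library. The DADA libraries had about 78.8 to 115. The direction was opposite to that of *Csf2*, with a mean 5.25-fold higher with DADA. The log2 change was 1.91 (95% interval 1.66 to 2.16, adjusted p = 2.13e-07), and 2.36 with a pseudocount of 0.1 in place of 1. In each DMSO library *Il3* stood at between 0.0147 and 0.0273 of the *Csf2* level, and in each DADA library at between 0.487 and 0.651 of it. On the log2 scale this ratio differed by 4.77 between the groups. *Il3* and *Csf2* each separated the groups, in opposite directions. The exact two-sided permutation test of their ratio therefore had to give its lowest p, 0.0286, and adds no support.

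*P4ha2*, the gene on the other side of *Csf2*, encodes a collagen prolyl hydroxylase subunit. It rose from 1.61 to 26.4 FPKM (log2 change 3.39, adjusted p = 5.12e-12), so *Csf2* fell between a pair of neighbours that rose. *Acsl6*, beyond *Il3*, was not called (log2 change 0.14, adjusted p = 0.515). Gene order here is that of RefSeq on GRCm38.p6. Among the other genes within 2 places of a cytokine gene, *Dyrk2* beside *Ifng* (log2 change 0.22), *Lst1* near *Tnf* (0.32, not called after quantile normalization) and *Kif3a* near *Il13* (0.20) were called higher. *Cetn4* and *Bbs12* near *Il21* were called lower (-0.26 and -0.31), and *Cand1*, *Nfkbil1*, *Atp6v1g2* and *Dyrk3* were not called.

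*Il13* (ENSMUSG00000020383) encodes IL-13, a type 2 cytokine that acts on epithelia and macrophages, and lies elsewhere on chromosome 11. The 4 DMSO values were 17.4, 16.3, 15.8 and 15.7 FPKM, and the 4 DADA values 3.87, 4.16, 3.81 and 4.10 FPKM. The groups were far apart, with a mean 4.10-fold lower with DADA (log2 change -1.80, 95% interval -1.90 to -1.70, adjusted p = 3.92e-10). *Il13* thus resembled *Csf2* in size and direction: the log2 ratio of *Il13* to *Csf2* moved only from -2.35 to -2.05, although its groups did not overlap either. The type 2 cytokine genes beside it were near the limit of detection. *Il4* averaged 0.371 FPKM in the controls and 0.206 FPKM after DADA, *Il5* averaged 0.24 and 0.182 FPKM, and neither was called in a fit without the filter (adjusted p = 0.441 and 0.536). *Rad50*, between *Il13* and *Il5*, encodes a DNA repair protein and was lower by a log2 change of -0.41.

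**Figure D2:**
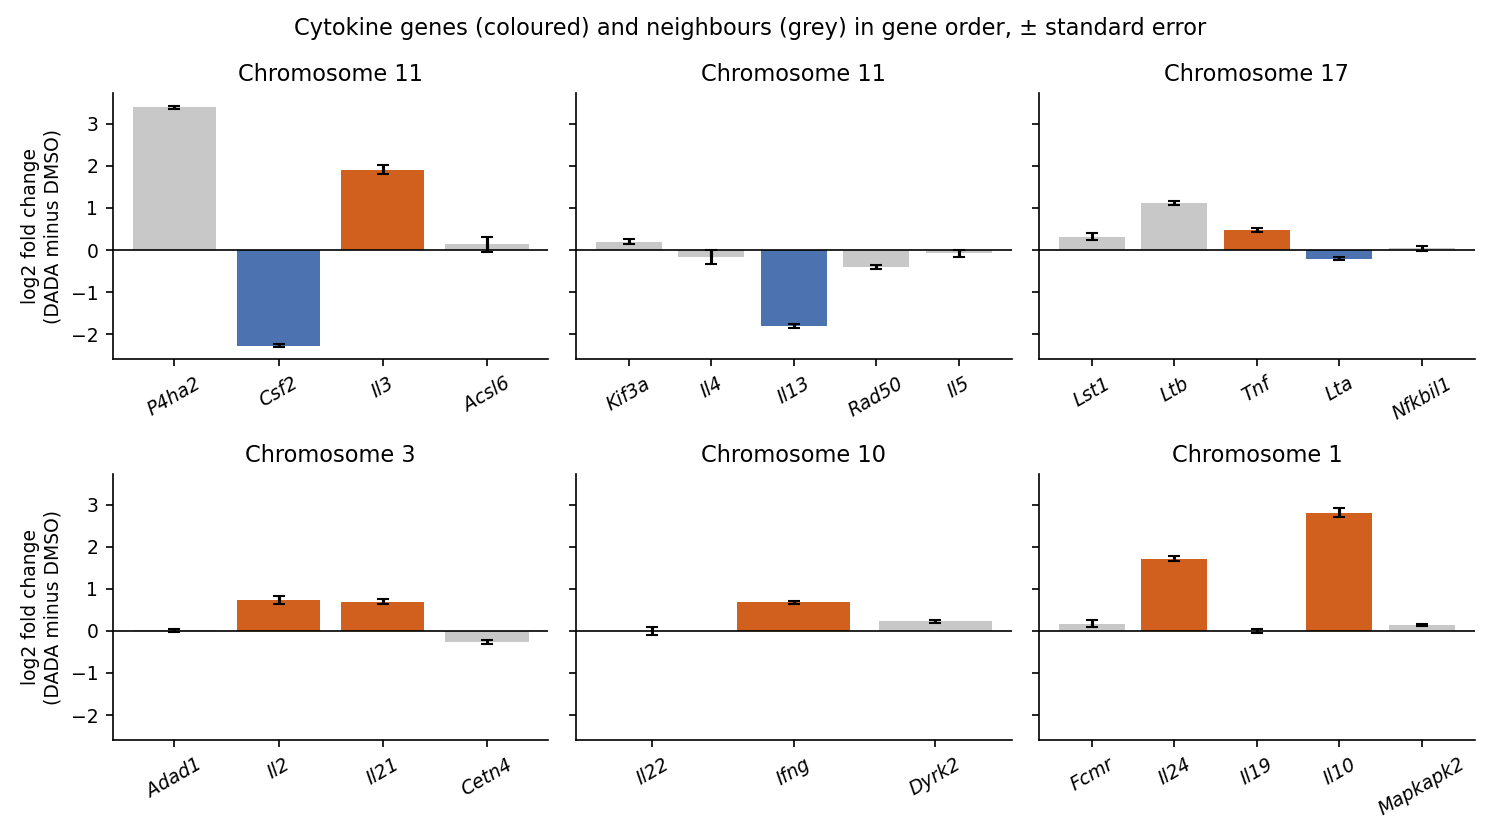
Log2 fold change (DADA minus DMSO, ± standard error) of the cytokine genes (coloured) and of neighbouring protein-coding genes (grey), from left to right in RefSeq gene order on GRCm38.p6. *Il20*, which lies between *Il24* and *Il19*, had no fitted value and *Iltifb*, between *Il22* and *Ifng*, was not matched; bars of *Il4*, *Il5*, *Il21*, *Il22*, *Il19*, *Adad1* and *Fcmr* come from the fit without a filter on low values. *Csf2* fell while *P4ha2* and *Il3* on its sides rose.

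*Il10* (ENSMUSG00000016529) encodes IL-10, which dampens the responses of myeloid and T cells. It was nearly absent from the DMSO libraries, at 0.0651, 0.394, 0.168 and 0.368 FPKM, and was at 6.60, 8.19, 8.18 and 7.95 FPKM in the DADA libraries. With the depth estimated from the FPKM steps, the DMSO values correspond to about 1.24 to 8.40 fragments per library and the DADA values to about 155 to 197. The means stood at 0.249 ± 0.159 and 7.73 ± 0.762 FPKM (SD, n = 4 each), and the fitted change depended on the pseudocount: it was 2.81 with 1 FPKM added (95% interval 2.58 to 3.03, adjusted p = 6.08e-09) and 4.62 with 0.1 FPKM added. *Il10* passed the filter only through its DADA libraries. In the limma fit without a filter its adjusted p was 1.92e-07.

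*Il24* (ENSMUSG00000026420), from the same cluster, encodes IL-24, an IL-10 family member that signals mainly to epithelial cells. Its levels were 2.28, 2.19, 2.12 and 1.77 FPKM with DMSO and 9.71, 9.03, 8.52 and 9.20 FPKM with DADA. Groups were well separated, with a 4.36-fold higher mean (log2 change 1.71, 95% interval 1.57 to 1.85, adjusted p = 7.36e-09). *Il24* was above *Il10* in each library of both groups. With DADA both were of similar level, at a log2 ratio of *Il10* to *Il24* of -0.24 ± 0.219 (SD, n = 4). Between them, *Il19* averaged 0.0326 FPKM with DMSO and *Il20* was listed at 0 there. *Mapkapk2*, on the other side of *Il10*, encodes a kinase of the p38 pathway and rose by 0.14 on the log2 scale.

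*Il2* (ENSMUSG00000027720) encodes IL-2, the T cell growth factor that was also supplied in the medium. Its own transcript was scarce, at 0.525, 0.623, 0.522 and 0.480 FPKM with DMSO and at 1.23, 1.31, 1.78 and 2.03 FPKM with DADA. These values stand for about 7.78 to 11.6 fragments per DMSO library and 25.3 to 43.8 per DADA library. The DADA libraries were spread widely, yet the lowest was above every control (means 0.538 ± 0.0606 and 1.59 ± 0.379 FPKM, SD, n = 4 each). The log2 change was 0.74 (95% interval 0.51 to 0.96, adjusted p = 1.05e-04), 1.38 with a pseudocount of 0.1 and 0.46 after quantile normalization. *Il2* passed the filter only through its DADA libraries. In the limma fit without a filter its adjusted p was 0.00033.

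*Il21* (ENSMUSG00000027718) encodes IL-21, a cytokine that sustains CD8+ T cells and helps B cells. It was read at 0.0222 and 0.0683 FPKM in DMSO replicates 1 and 4, was listed at 0 in DMSO replicates 2 and 3, and was at 0.743, 0.542, 0.518 and 0.816 FPKM with DADA. All the DADA libraries were higher, but each stayed below 1 FPKM, and no fold is given. In the fit without a filter on low values *Il21* was called higher (adjusted p = 2.75e-05), as were 24.8% of the 16167 genes in that fit.

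**Figure D3:**
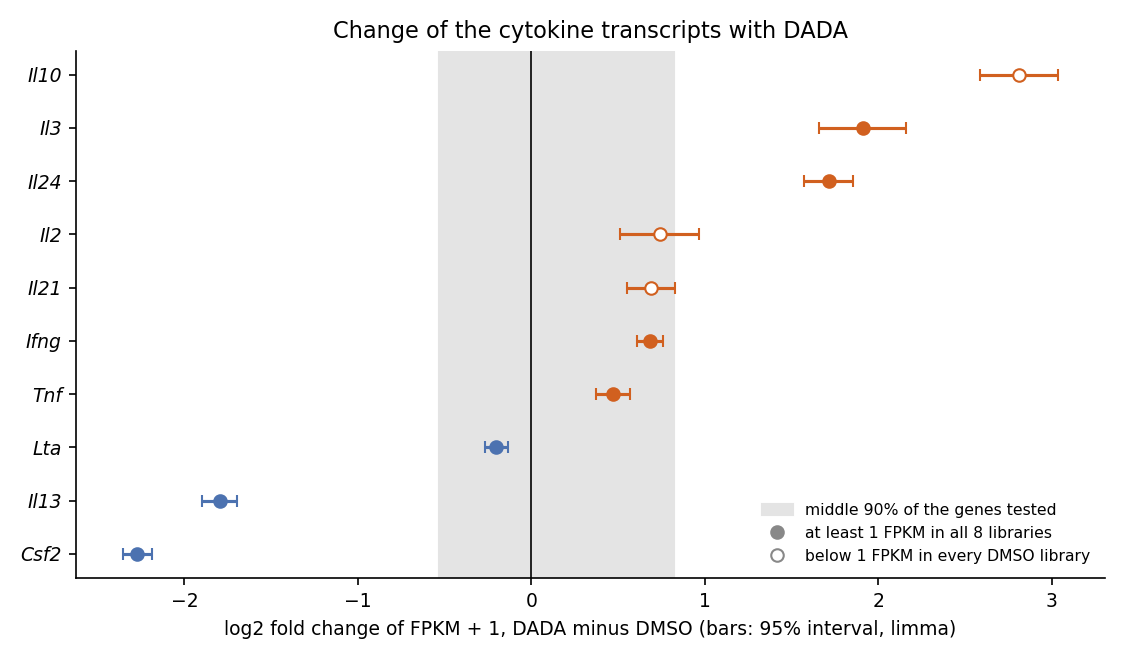
Log2 fold change of FPKM + 1 (DADA minus DMSO) with its 95% limma interval for each cytokine gene, beside the range that holds the middle 90% of the genes tested (grey, -0.53 to 0.82). *Il10*, *Il3* and *Il24* lay above that range, and *Il13* and *Csf2* below it. Open points mark genes under 1 FPKM in every DMSO library, whose size depends on the pseudocount; *Il21* comes from the fit without a filter.

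The order of the levels per length differed between the groups below the top 2 genes. With DMSO it ran *Ifng*, *Lta*, *Csf2*, *Tnf*, *Il13*, *Il24*, *Il3*, *Il2*, *Il10* and *Il21*, and the libraries of *Il24* and *Il3*, and of *Il10* and *Il21*, overlapped. With DADA it ran *Ifng*, *Lta*, *Tnf*, *Csf2*, *Il3*, *Il24*, *Il10*, *Il13*, *Il2* and *Il21*, and only the neighbours *Il3* and *Il24* overlapped. *Il13* therefore dropped below *Il3*, *Il24* and *Il10*.

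The genes most alike to the 3 most abundant members over the 8 libraries were found by Pearson's r, given as a description since the libraries fall into 2 groups. *Ifng* was followed most closely by *Appl2* and *Carhsp1* (r = 0.999 each), with 244 genes above r = 0.99. *Csf2* was followed by the glucose transporter gene *Slc2a1* and the replication gene *Mcm2* (r = 1.00 each), with 373 genes above 0.99. *Lta* had 2 such genes, *Zfp639* (r = 0.992) and the splicing regulator gene *Mbnl1*.

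Of 17 other cytokine genes of lymphocytes, 10 were tested, of which 5 were called higher, 4 lower and 1 was not called (*Il16*). The median log2 change was 0.18, beside -0.02 over all genes tested. The counts in this list and those below stand beside 66.2% of all genes tested called, 30.9% higher and 35.3% lower. The lists were chosen with earlier results of these data known, so their counts and medians are descriptions only. *Ltb* rose most and *Il6*, which encodes an inflammatory cytokine, fell most, from 10.4 to 1.84 FPKM (log2 change -2.01, adjusted p = 1.72e-08). The other calls were looked up after their values were seen. *Osm* (log2 change 0.88) and *Lif* (0.73), both of the IL-6 family, *Mif* (0.31) and *Ebi3* (0.14) were called higher. The groups of *Ebi3* overlapped (adjusted p = 0.0421), and its call was lost in 9 alternatives, among them the fit without a filter (adjusted p = 0.0683) and leaving out any DMSO library. *Il16* was called when DMSO replicate 3 was left out (log2 change 0.33, adjusted p = 0.00747). Lower were *Il17a* (-1.29), the signature cytokine of type 17 cells, *Tnfsf11* (-1.27), which encodes RANKL, and *Tgfb1* (-0.47). *Il17a* passed the filter through its DMSO libraries only.

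Among 21 receptor chains for these cytokines, 13 were tested, with 8 called higher, 1 lower and 4 not called, and a median log2 change of 0.16. *Il10ra*, the chain that binds IL-10, changed most, from 11.1 to 42.3 FPKM (log2 change 1.84, adjusted p = 5.20e-11). The chains of the IL-2 receptor did not move together. The high-affinity chain *Il2ra* rose from 293 to 549 FPKM and *Il2rb* from 151 to 253 FPKM (log2 changes 0.90 and 0.74), whereas the shared chain *Il2rg* fell from 267 to 248 FPKM (log2 change -0.11, adjusted p = 0.00222).

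The remaining rises were small on the log2 scale: *Il4ra* (0.33), which also serves IL-13, *Ifngr1* (0.32), *Tnfrsf1a* (0.22), *Tnfrsf1b* (0.16) and *Il21r* (0.09). *Ifngr2*, *Csf2ra*, *Il3ra* and *Il10rb* were not called, although *Il3ra* was called without DMSO replicate 2 (adjusted p = 0.0477). The signalling chain shared by GM-CSF and IL-3, *Csf2rb*, stayed under the filter, at a mean of 0.0276 FPKM in the controls and 0.374 FPKM after DADA, and was called higher in the fit without it (adjusted p = 1.07e-05). The IL-13 chains *Il13ra1* and *Il13ra2* and the IL-24 receptor chains *Il20ra*, *Il20rb* and *Il22ra1* were also under the filter, as were *Csf2rb2* and *Ltbr*. In the limma fit without a filter, *Il13ra1* (means 0.00929 and 0.101 FPKM, adjusted p = 0.00209) and *Csf2rb2* (0.0142 and 0.1 FPKM, adjusted p = 0.0108) were called higher. *Il20ra*, *Il20rb* and *Ltbr* were not called in it, and *Il13ra2* and *Il22ra1* were listed at 0.

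The list of transcription factors known to act at cytokine genes in T cells had 26 genes, of which 24 were tested. Of these, 18 were called higher, 5 lower and 1 (*Rel*) was not called, with a median log2 change of 0.35. *Prdm1*, which encodes the repressor Blimp-1, rose most, from 0.661 to 7.56 FPKM (log2 change 2.36, adjusted p = 2.18e-09), although it passed the filter through DADA only. *Nr4a1*, an early gene of T cell receptor signalling, fell most, from 125 to 55.8 FPKM (log2 change -1.15, adjusted p = 5.70e-10).

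Some families in that list were looked up after their values were seen. The AP-1 genes were higher: *Jun* changed by 1.40 on the log2 scale, *Junb* went from 187 to 343 FPKM and *Fosl2* from 15.9 to 34.1 FPKM, and *Fos* and *Jund* were also called higher. The NFAT genes were split, with *Nfatc1* and *Nfatc2* higher (log2 changes 0.37 and 0.27) and *Nfatc3* lower (-0.16). The NF-κB genes were split too, with *Rela* higher (0.33), *Nfkb1* lower (-0.45) and *Rel* not called. Of the factors that set T cell programmes, *Tbx21* rose from 14.3 to 22.7 FPKM and *Runx3* from 24.4 to 52.0 FPKM. *Irf4* and *Bhlhe40* were also higher (log2 changes 0.91 and 0.92). *Gata3* fell from 4.38 to 2.20 FPKM, and *Eomes* fell from 13.7 to 10.5 FPKM. Whether these factors acted on the cytokine genes was not tested.

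All 12 listed genes for proteins that bind cytokine mRNA were tested, and 9 were called higher, 2 lower and 1 (*Rc3h1*) was not called, with a median log2 change of 0.36. *Zc3h12d*, which encodes an RNase of the regnase family, rose most (log2 change 0.94, 18.6 to 36.6 FPKM). *Elavl1*, which encodes the mRNA-stabilising protein HuR, fell most (-0.40, 39.7 to 29.9 FPKM).

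Known targets of the cytokines were counted in the same way. Among all genes tested 66.2% were called, 30.9% higher and 35.3% lower. Of 9 targets of IL-2 and STAT5, 8 were called higher and 1 (*Cish*) was not called, with a median log2 change of 0.33. *Cish* was called higher under each of the 3 other scalings (log2 change 0.08 to 0.11) and without DMSO replicate 1. Of 8 targets of IFN-γ, 6 were tested, with 5 higher and 1 lower and a median of 0.62. *Cxcl10*, a chemokine that draws T cells, rose from 2.61 to 33.9 FPKM (log2 change 3.28, adjusted p = 4.86e-10), and *Irf1* fell by 0.18 on the log2 scale.

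Of 7 targets of TNF and NF-κB, 5 were called higher, 1 lower and 1 (*Relb*) was not called, with a median of 0.52. *Tnfaip3*, a brake on NF-κB, changed by 1.01 and *Nfkb2* by -0.52 on the log2 scale. Of 4 targets of IL-10, IL-21 and STAT3, 3 were tested and called higher (*Prdm1*, *Bcl3* and *Socs3*), with a median of 1.53. *Prdm1* passed the filter through DADA only and so had to differ. The target left out, *Bcl6*, was under the filter, at means of 0.482 FPKM with DMSO and 0.544 FPKM with DADA. It was not called in the limma fit without a filter (adjusted p = 0.265). *Il2ra*, *Osm*, *Socs1* and *Prdm1* stood in more than one list.

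**Figure D4:**
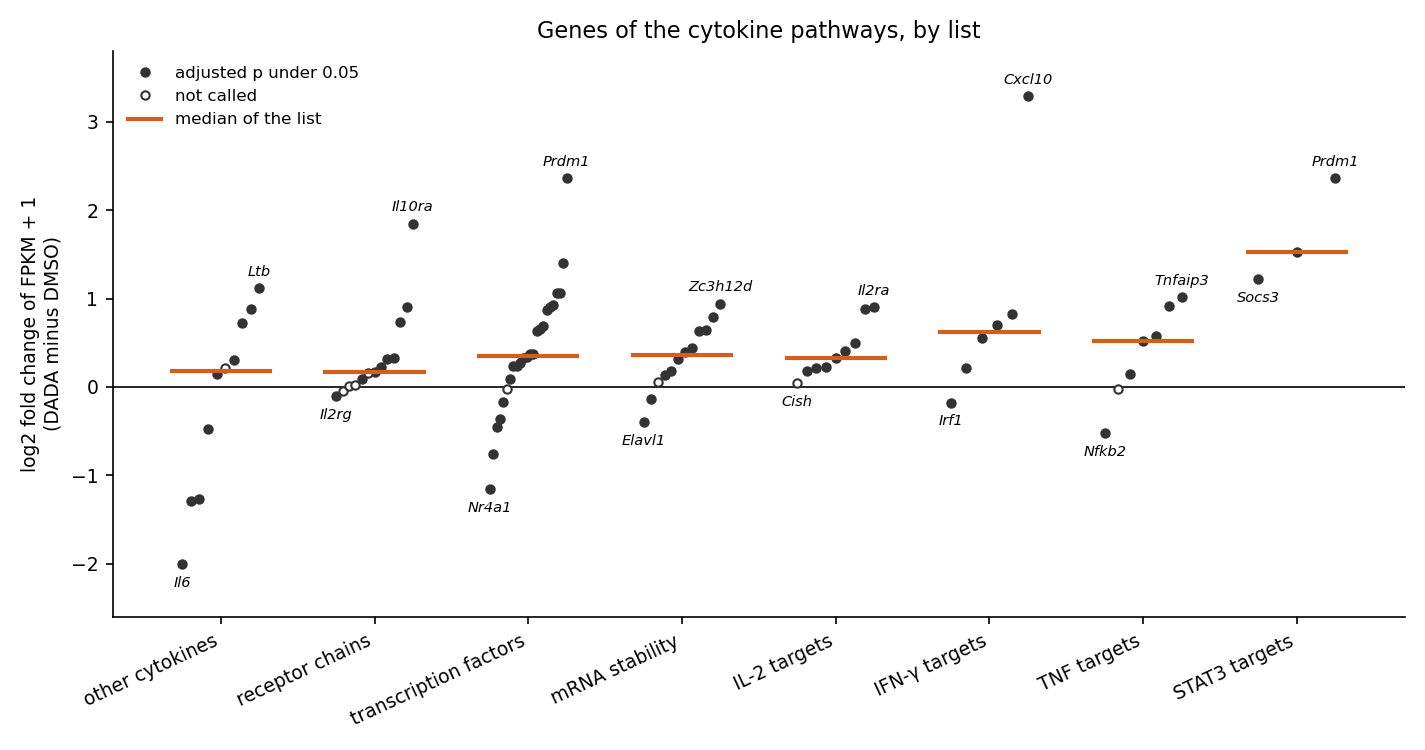
Log2 fold change of FPKM + 1 (DADA minus DMSO) of each tested gene in 8 lists around the cytokine genes, with called genes filled, genes not called open, and the list's median as a line. Medians ranged from 0.16 for the receptor chains to 1.53 for the 3 STAT3 targets, and each list's extreme genes are named. Among those 3, *Prdm1* passed the filter through DADA only.

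Markers of other cells were measured beside these results. The summed FPKM of 5 CD8+ T cell markers was 674 to 680 in the DMSO libraries and 776 to 805 in the DADA libraries, with *Cd8b1* moving most (log2 change 0.35). Of 5 myeloid markers all were below 1 FPKM in every library, with *Csf1r* and *Adgre1* at 0, and of the B cell genes *Pax5* was at 0 while *Cd79b* averaged 3.08 FPKM with DMSO and 2.69 FPKM with DADA. The sum of 4 CD4+ T cell markers was 16.3 to 17.4 FPKM in the controls and 15.3 to 15.8 FPKM after DADA, nearly all of it *Zbtb7b* (means 16.4 and 15.0 FPKM). *Cd4* itself averaged 0.283 and 0.213 FPKM, and *Foxp3*, which marks regulatory T cells, 0.0693 and 0.214 FPKM. The sum of 5 mast cell and basophil markers was 0.527 to 0.652 with DMSO and 3.75 to 4.34 with DADA, nearly all of it *Kit*, which averaged 0.542 and 3.98 FPKM, while *Mcpt8* and *Ms4a2* were at 0. *Cpa3* and *Fcer1a* were also at 0 in every DADA library, so the higher sum there was *Kit* alone. *Kit* passed the filter through DADA only. The sum of 4 NK cell markers was 0.0236 to 0.271 with DMSO and 0.392 to 0.776 with DADA. Whether these low signals came from other cells, and whether such cells had a part in the cytokine values, was not tested.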

How the data were processed

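RNA-seq of 8 libraries (4 Ctrl, given DMSO, and 4 DADA) was used. The authors deposited one table of FPKM per gene and library. The submitters' processing notes name HISAT2 2.0.5 and StringTie 1.3.3, among other tools, and the builds GRCh38 and GRCm39, without roles. Coordinates are therefore given only for promoter windows, from RefSeq on GRCm38.p6. Read counts were not used, and depth was estimated from the steps between low FPKM values, at 13740000 to 18920000 fragments per library. Between 36.8% and 44.4% of the low values came within 0.1 of a whole fragment, where chance gives 20% for a depth fixed in advance. Each depth was itself chosen by how near such values came to whole fragments, so these shares overstate its support. No count test was run.

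Genes with at least 1 FPKM in at least 4 libraries were tested as log2(FPKM + 1) with limma 3.58.1 (R 4.3.3), fitting a trend of variance on mean, and p-values were adjusted by Benjamini-Hochberg over the whole table tested. Single values were tested by exact two-sided permutation. The fit was tested on simulated data with known changes, placed only in genes above a set level with DMSO. *Il2*, *Il3*, *Il10*, *Il21* and *Il24* were below that level, so the simulation does not cover them. The genes and lists were chosen with earlier results of these data known. Named were all cytokine genes of the set, of each list the called gene with the largest rise and the largest fall, every called receptor chain, tested neighbours up to 2 genes away, and the genes most alike to the 3 most abundant members. Alternatives changed the pseudocount, filter, scaling, trend, pairing and assembled transcripts, or left out a library. The same replicate numbers in the 2 groups showed no sign of pairing (correlation of deviations -0.12 to 0.0953), which 4 pairs cannot exclude. FPKM are relative to all transcripts measured, so they do not show absolute amounts per cell.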

Additional observations from a re-analysis of the deposited data

Results flagged for a closer look

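Libraries that stood apart from the other 3 of their group were looked for by the gap to the nearest library divided by the group's range. Over 43 genes and 86 groups, 6 were past the 95% limit of Dixon's test, where chance flags about 1 in 20 groups, or 4.3 here.

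Among the cytokine genes, the ratio was 0.852 for *Csf2* with DMSO, where replicate 4 read 80.0 FPKM and the others 83.9 to 84.5 FPKM. It was also 0.852 for *Il10* with DADA (replicate 1 at 6.60 FPKM, the others at 7.95 to 8.19 FPKM) and 0.874 for *Lta* with DADA (replicate 1 at 79.2 FPKM, the others at 84.1 to 84.8 FPKM). Each gap was small beside the distance between the groups for *Csf2* and *Il10*. Among the neighbouring genes the ratio was 0.847 for *Nfkbil1* (DADA replicate 3), 0.875 for *P4ha2* (DADA replicate 1) and 0.835 for *Rad50* (DADA replicate 2). DADA replicate 1 stood apart in 3 of the 6 groups.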

How the results depend on the processing

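Over 17 alternatives, all 151 values of the 9 fitted cytokine genes kept their direction and their call, with a largest adjusted p of 0.00303 (*Il2* after quantile normalization), and so did all 339 values of the 20 genes named by rule from the lists. *Il2*, *Il10* and, among the 20, *Prdm1* passed the filter only through DADA. Their kept calls therefore say little except in the fit without a filter. The count of called cytokine genes was 6 higher and 3 lower, 7 higher without a filter, which adds *Il21*, and 4 higher with a mean of at least 5 FPKM, which leaves out *Il10* and *Il2*. *Il3* and *Il24* reached that mean only through DADA (DMSO means 1.79 and 2.09 FPKM). *Il13* reached it only through DMSO (DADA mean 3.98 FPKM). For these genes the kept call under that filter adds little. Leaving out each library in turn moved *Il2* between 0.66 and 0.81 and *Csf2* between -2.30 and -2.24 on the log2 scale. With the replicate number as a block, 6 cytokine genes were again called higher and 3 lower. *Il16* and *Il3ra* gained a call with it (adjusted p = 0.02 and 0.0462), the only 2 changes among the list genes and neighbours. Over all genes the block moved the calls from 7064 to 6995, and 0 of 4 DMSO libraries correlated best with their own number. Over the 113 tested list genes and neighbours, the call changed in 35 of 1907 comparisons, in 10 genes. *Ebi3* (9 times), *Cd3g* (8), *Egr1* (3) and *Lst1* (1) lost calls, and *Cish* (4), *Il16*, *Il3ra*, *Cand1*, *Atp6v1g2* and *Cd79b* (2 each) gained them. Scaling moved the median change of all genes to between -0.05 and 0.01 and turned the balance of calls, from 3296 higher and 3768 lower to 3604 and 3380 when rescaled to the same total, 3623 and 3413 by median ratio, and 3005 and 4116 after quantile normalization. The estimated depth limits the sizes given for *Il10*, *Il3*, *Il2* and *Il21*.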
